A study of Homo sapiens with 4 samples.

Results

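The transcripts of the alpha-v integrin chain (ITGAV), of the beta chains that pair with it (ITGB1, ITGB3, ITGB5, ITGB6 and ITGB8), of the alpha-5 chain (ITGA5) and of the integrin beta-like protein ITGBL1 were followed in SUIT2 cells treated with fb-PMT. These 8 genes were taken by gene symbol from the array's platform annotation, and each had 1 transcript cluster, a probe set that summarises 1 locus, among 21448 tested. The series holds 4 arrays of total RNA. The fb-PMT group (n = 2) received the drug at 30 µM for 24 h, and the untreated group (n = 2) received phosphate-buffered saline for the same time. fb-PMT is built from tetraiodothyroacetic acid, an analog of thyroid hormone, and was made to occupy the site where the hormone binds integrin αvβ3, so the genes in view include both chains of its intended target. The series asked how the drug alters transcription of genes needed for mitochondrial function, and the labels name no other agent or genetic change. No label says that the 2 replicates of a group were separate cultures, so every p-value rests on the spread among these arrays, which may be technical.

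Integrins are adhesion receptors made of an alpha and a beta chain, both of which cross the membrane. The alpha-v chain pairs with several beta chains, and these receptors bind matrix proteins such as vitronectin, fibronectin and osteopontin, many through an arginine-glycine-aspartate motif. In carcinoma cells αvβ5 is known as a vitronectin receptor, αvβ6 and αvβ8 bind and activate latent TGF-beta, and αvβ3 is best known from endothelium, osteoclasts and invasive tumours. The alpha-5 chain is not an alpha-v chain; it joins beta-1 to form the classical fibronectin receptor. ITGBL1 is not a receptor chain either, but a secreted protein whose EGF-like repeats resemble the stalk of the beta chains.

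The cells are labelled as glioblastoma, whereas SUIT-2 is known as a line of pancreatic ductal adenocarcinoma. Of 10 markers of ductal epithelium, 8 lay above the negative controls on all 4 arrays, among them KRT8, KRT18, KRT19 and EPCAM. CDH1 and MUC1 lay below the negative controls on all 4. All 10 markers of glia and glioma, GFAP and OLIG2 included, lay below them on all 4 arrays, and so did all 7 measured endothelial markers and all 7 measured markers of leukocytes and platelets. Of 7 measured fibroblast markers, 5 were below them on all 4 arrays and COL1A2 was above them on all 4. The measured ductal markers had a median log2 difference of -0.20 between fb-PMT and untreated arrays and 0 of them passed limma's test. At an unadjusted p under 0.05, 0 ductal markers were higher and 3 lower, where 5.7% and 5.49% of all transcript clusters were. With an intensity trend in the variance 1 marker passed as higher and 3 as lower, against 1.37% and 0.513% of all transcript clusters. KRT7, named after its value was seen, had the largest difference, -0.95 (limma adjusted p = 0.192, and 0.00233 with the trend). The part of these markers in the differences of the 8 genes was not tested. The negative controls were 612 probe sets of the array, and their 95th percentile was 7.15 and 7.29 on the fb-PMT arrays and 7.38 and 7.22 on the untreated arrays, on the same log2 scale as every value that follows. Below that percentile on all 4 arrays lay 11820 of all 21448 transcript clusters, and 8696 lay above it on all 4.

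Promoter windows for 7 of the 8 genes were found in RefSeq (GRCh38.p14), each with 250 bases before and 50 bases after a transcript start. Those of ITGAV and ITGBL1 are shown because these genes had the smallest p-values of the 8, and that of ITGB6 because its transcript was below the negative controls. All are printed 5′ to 3′ on the strand of the gene, and capitals mark a GC box (GGGCGG on either strand).
ITGAV, chr2:186589806-186590105, plus strand: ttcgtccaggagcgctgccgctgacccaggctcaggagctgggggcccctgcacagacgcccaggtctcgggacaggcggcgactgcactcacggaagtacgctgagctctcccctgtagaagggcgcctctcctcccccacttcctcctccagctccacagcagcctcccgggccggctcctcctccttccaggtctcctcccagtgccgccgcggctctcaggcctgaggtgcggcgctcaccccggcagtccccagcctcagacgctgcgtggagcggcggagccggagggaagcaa
ITGB6, chr2:160200223-160200522, minus strand: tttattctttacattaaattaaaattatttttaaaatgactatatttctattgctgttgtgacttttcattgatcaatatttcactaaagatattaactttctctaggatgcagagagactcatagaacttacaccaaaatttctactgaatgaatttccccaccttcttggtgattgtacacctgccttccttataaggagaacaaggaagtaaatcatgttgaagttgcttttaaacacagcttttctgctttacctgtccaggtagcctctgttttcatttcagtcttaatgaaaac
ITGBL1, chr13:101452425-101452724, plus strand: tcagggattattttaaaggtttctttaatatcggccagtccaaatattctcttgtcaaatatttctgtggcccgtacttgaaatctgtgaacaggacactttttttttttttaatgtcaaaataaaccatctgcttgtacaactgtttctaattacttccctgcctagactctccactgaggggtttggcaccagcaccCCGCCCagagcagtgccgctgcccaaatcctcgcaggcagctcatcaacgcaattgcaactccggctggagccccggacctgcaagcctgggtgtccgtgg

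The windows differed widely in base composition. The ITGAV window held 70.7% G and C and 23 CpG dinucleotides, the ITGBL1 window 47.7% and 9, and the ITGB6 window 31.7% and 0, against medians of 58.7% and 14 over 35116 windows of the same length. The motifs searched on both strands were the GC box (GGGCGG), the AP-1 site (TGANTCA), the nuclear receptor half-site (AGGTCA) and the TATA box (TATAAA). No matches of different motifs overlapped in the windows described. Of all windows, 45% held a GC box, 7.71% an AP-1 site, 13.8% a half-site and 11.5% a TATA box. ITGBL1 held 1 GC box, and the windows shown for ITGAV and ITGB6 held none of the 4 motifs. A second ITGAV window, at a start farther downstream (chr2:186599955-186600254, plus strand), held 1 nuclear receptor half-site, the only match to that motif in the 11 windows found. The ITGB5 window at the start of the gene held 2 GC boxes and 49.7% G and C. ITGB5 windows at chr3:124887316-124887615 and chr3:124887635-124887934 (minus strand) held 3 and 2 GC boxes, with 75.7% and 59.7% G and C. The ITGB8 window, which did not lie at the start of the gene, held 2 GC boxes. The ITGA5 window (chr12:54419217-54419516, minus strand) held 1 AP-1 match, whose first base lay 6 bases before the start, and 1 GC box. The ITGB1 window at the start of the gene (chr10:32958181-32958480, minus strand) held 3 GC boxes and 78.3% G and C, and a second one (chr10:32935509-32935808, minus strand) held 3 TATA box matches, some of which overlap each other on opposite strands. These matches describe letters in the windows only.

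None of the 8 genes passed the threshold of an adjusted p of 0.05 in limma's test, where 0.0979% of all transcript clusters passed, all of them higher with fb-PMT. The 8 genes had a median log2 difference of -0.016, against -0.017 over all 21448 transcript clusters, with 4 higher and 4 lower. At an unadjusted p under 0.05, 1 gene was higher (ITGAV) and 1 lower (ITGBL1). Of all transcript clusters 11.2% lay under that level, 5.7% as higher and 5.49% as lower. The fb-PMT arrays lay above both untreated arrays in 3 of the 8 genes and below both in 2, against 20.2% and 22.3% of all transcript clusters. With 2 arrays against 2, an exact permutation test of a single gene cannot give a two-sided p below 0.333, so the model across all transcript clusters carries the tests.

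**Figure D1:**
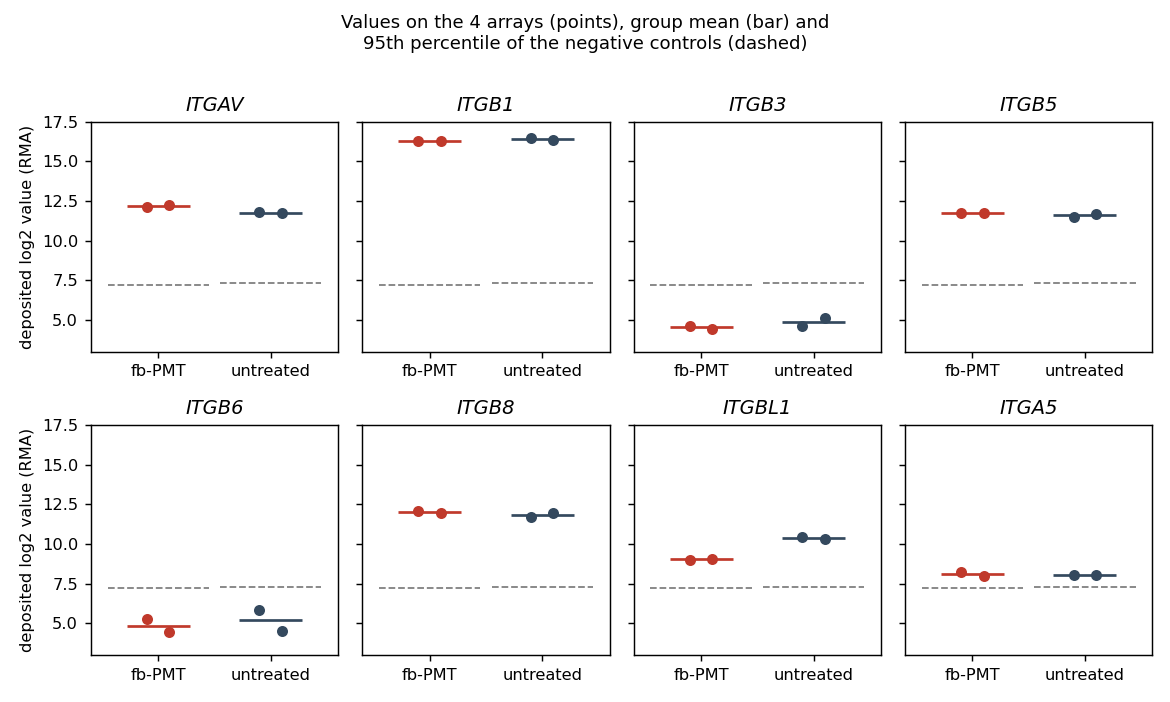
Deposited log2 values of the 8 genes on the 4 arrays. Each panel is 1 gene, points are arrays (fb-PMT left, untreated right), solid bars are group means and dashed lines the 95th percentile of the negative controls, averaged within the group. ITGB3 and ITGB6 lie under the dashed lines, and ITGBL1 shows the widest gap between groups.

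ITGAV, the chain shared by all alpha-v integrins, had log2 values of 12.14 and 12.28 on the fb-PMT arrays and 11.83 and 11.73 on the untreated arrays. Both treated arrays lay above both untreated ones, and the gap between the groups was wider than the gap within either. The means were 12.21 ± 0.095 with fb-PMT and 11.78 ± 0.075 untreated (SD, n = 2 each), a log2 difference of 0.43 (SE 0.15, 95% interval 0.055 to 0.81) or 1.35-fold. limma's adjusted p was 0.405, so the difference did not pass the test. With an intensity trend in the variance limma's adjusted p for ITGAV was 0.0913. It was 0.116 when transcript clusters not above the negative controls on both arrays of a group were left out. Neither passed the threshold. The 4 pairs of a treated and an untreated array gave differences of 0.31 to 0.55.

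ITGB3 encodes the beta chain of αvβ3, the receptor the drug was designed for. Its log2 values were 4.63 and 4.45 on the fb-PMT arrays and 4.59 and 5.14 on the untreated arrays, below the negative controls on all 4. The groups overlapped, and no fold is given because both were under the background level. The log2 difference of the values as deposited was -0.33 (95% interval -0.88 to 0.23, limma adjusted p = 0.628). It was -0.051 without untreated replicate 2 and -0.61 without untreated replicate 1. The ITGB3 transcript was therefore not detectable above background in either group, while ITGAV was well above it in both. The array measures RNA, and the αvβ3 protein at the surface was not measured.

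The beta chains ITGB5 and ITGB8 were above the negative controls on all 4 arrays. ITGB5, which makes the vitronectin receptor αvβ5, had 11.74 and 11.72 with fb-PMT and 11.48 and 11.70 untreated. ITGB8, the chain of the TGF-beta activating αvβ8, had 12.05 and 11.99 with fb-PMT and 11.71 and 11.97 untreated. In both genes the treated arrays lay above the untreated ones, but by only 0.013 for ITGB5 and 0.018 for ITGB8 at the closest pair, and untreated replicate 1 was the low array in both. The log2 differences were 0.14 for ITGB5 (95% interval -0.26 to 0.53, limma adjusted p = 0.795) and 0.18 for ITGB8 (95% interval -0.23 to 0.59, limma adjusted p = 0.726). Without untreated replicate 1 they were 0.024 and 0.051.

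ITGB6, the epithelial chain of αvβ6, had 5.24 and 4.46 with fb-PMT and 5.86 and 4.52 untreated, below the negative controls on all 4 arrays. The groups overlapped, and the arrays within a group were 0.78 apart with fb-PMT and 1.34 apart untreated, the widest spread among the 8 genes. Its log2 difference of -0.34 had a 95% interval of -1.53 to 0.85 (limma adjusted p = 0.836). The sign was not stable: the difference was 0.33 without untreated replicate 1 and 0.049 without fb-PMT replicate 2.

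ITGB1, which pairs with alpha-v, alpha-5 and many other alpha chains, had 16.32 on both fb-PMT arrays, equal in every digit deposited, and 16.46 and 16.35 on the untreated arrays. The groups did not overlap, yet the difference was -0.023 at the closest pair. The log2 difference was -0.078 (95% interval -0.44 to 0.29, limma adjusted p = 0.886), and -0.13 to -0.023 with 1 array left out. ITGA5 had 8.22 and 7.96 with fb-PMT and 8.06 and 8.02 untreated. The treated arrays lay on either side of the untreated ones, and the log2 difference was 0.047 (95% interval -0.36 to 0.45, limma adjusted p = 0.944). Without fb-PMT replicate 1 it was -0.085.

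**Figure D2:**
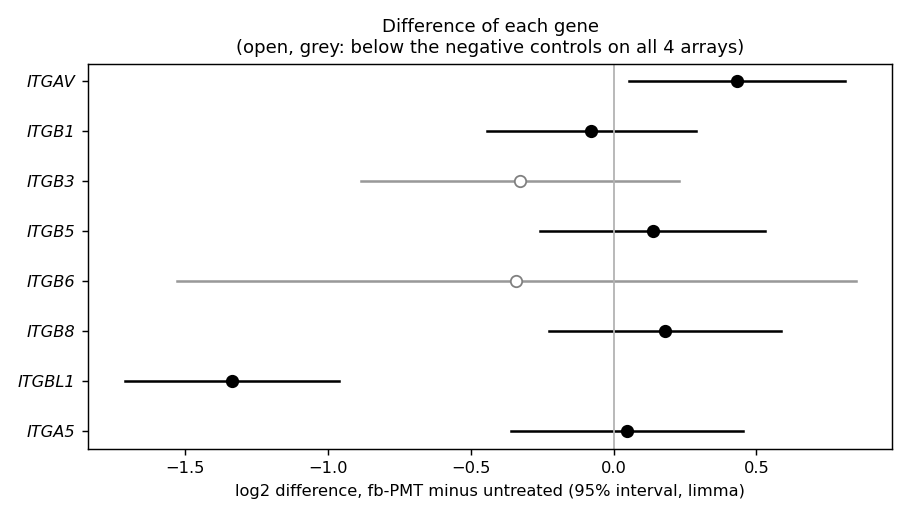
Log2 difference of each gene, fb-PMT minus untreated, with its 95% interval from limma. Filled points are genes above the negative controls, open grey points the genes below them on all 4 arrays. The intervals of ITGAV (0.055 to 0.81) and ITGBL1 (-1.71 to -0.96) exclude 0 before adjustment for the number of transcript clusters, and the others include it.

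ITGBL1 had the largest difference of the 8 genes. Its log2 values were 8.98 and 9.06 on the fb-PMT arrays and 10.43 and 10.29 on the untreated arrays, all above the negative controls. The 2 treated arrays were 0.075 apart and the 2 untreated arrays 0.14 apart, while the closest treated and untreated arrays differed by -1.23. The means were 9.02 ± 0.053 with fb-PMT and 10.36 ± 0.0999 untreated (SD, n = 2 each). The log2 difference of -1.34 (SE 0.15, 95% interval -1.71 to -0.96) corresponds to a level 2.52-fold lower with fb-PMT. Among all transcript clusters its p-value ranked 47th, and limma's adjusted p of 0.0675 missed the threshold. In RNA from whole cultures, fewer cells of a type and less RNA per cell cannot be told apart.

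Whether ITGBL1 passed depended on how the variance was modelled and on which transcript clusters were tested. limma's adjusted p was 0.000725 with an intensity trend in the prior variance, under which 1.37% of all transcript clusters passed as higher and 0.513% as lower. It was 0.00276 when the transcript clusters not above the negative controls on both arrays of a group were left out, 0.0397 when the lowest 30% were left out, and 0.0497 when only those with a gene symbol were tested. With 1 array left out the log2 difference stayed between -1.41 and -1.27 and the adjusted p lay between 0.149 and 0.551. In those fits 1 group has a single array, which is assumed to vary like the other group, so these p-values say little about stability. At an adjusted p of 0.10, ITGBL1 was the 1 of the 8 genes to pass, where 0.0373% of all transcript clusters passed as lower.

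**Figure D3:**
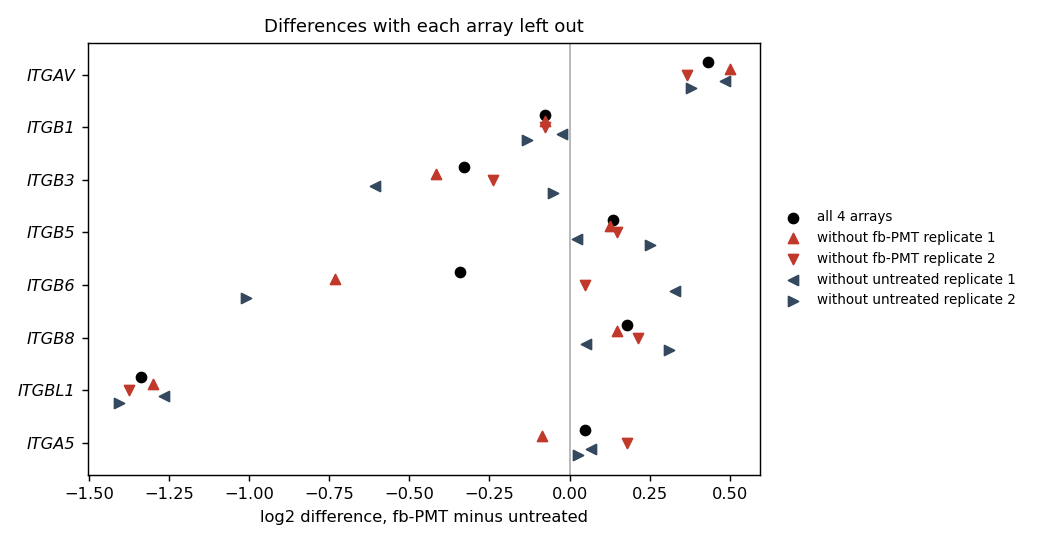
Log2 difference of each gene (fb-PMT minus untreated) with all 4 arrays and with each array left out in turn. Red triangles leave out a fb-PMT array and blue triangles an untreated array. ITGBL1 stays between -1.41 and -1.27 and ITGAV between 0.37 and 0.50, while ITGB6 and ITGA5 fall on both sides of 0.

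By the order of their log2 differences, the 6 genes above the negative controls ran from ITGBL1 (-1.34) through ITGB1 (-0.078), ITGA5 (0.047), ITGB5 (0.14) and ITGB8 (0.18) to ITGAV (0.43). ITGB3 and ITGB6 have no place in this order, since their values were below background. The 95% interval of ITGBL1 did not overlap that of any of the other 5, whose intervals overlapped between neighbours. The genes whose values followed ITGAV most closely were KLF6, SOAT1 and TMEM41A, at root mean square distances of 0.0089, 0.014 and 0.015 between values centred on each gene's mean. They were the nearest of 7645 named transcript clusters above the negative controls, and likeness over 4 arrays describes these arrays only.

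Of 18 other integrin chains measured, 13 had no array above the negative controls and 0 passed limma's test, also with an intensity trend. Among all 21448 transcript clusters, 11820 had no array above them. At an unadjusted p under 0.05, 1 of the 18 chains was higher and 3 were lower. ITGA2B, the higher one, and ITGA4, a lower one, had no array above the negative controls and were named after their values were seen. For this list and those below, 5.7% of all transcript clusters were higher and 5.49% lower at that level. With an intensity trend, 1.37% of all transcript clusters passed as higher and 0.513% as lower. Lower with fb-PMT were 12 of the 18 chains and 11298 of all 21448 transcript clusters. ITGA2, ITGA3, ITGA6, ITGAE and ITGB4 were above the negative controls, and all had negative log2 differences. The lowest was ITGB4, a chain of the laminin receptor α6β4, with 12.09 and 12.17 on the fb-PMT arrays and 12.66 and 12.50 on the untreated arrays. Its groups did not overlap, and its log2 difference was -0.45 (SE 0.15, limma adjusted p = 0.395). The nearest to 0 was ITGA2, a collagen receptor chain, at -0.021 with overlapping groups. The 18 genes had a median log2 difference of -0.19, against -0.017 over all transcript clusters.

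Of 29 measured ligands of the alpha-v and alpha-5 receptors, 14 lay below the negative controls throughout and 0 passed the test (with an intensity trend, 1 passed as higher and 1 as lower). Before adjustment, 4 ligands were higher and 3 lower at a p under 0.05. Of these, TNC (higher) and CCN3 (lower), named after their values were seen, lay below the negative controls on all 4 arrays. The 29 ligands had a median log2 difference of 0.058, with 16 higher and 13 lower. SPP1, which encodes osteopontin, had 9.46 and 9.67 with fb-PMT and 8.20 and 8.72 untreated. The treated arrays lay above the untreated ones, with a log2 difference of 1.10 (SE 0.22) or 2.15-fold, which did not pass (limma adjusted p = 0.236, and 0.0179 with an intensity trend). TGFBI, a matrix protein induced by TGF-beta that binds integrins, had 13.56 and 13.67 with fb-PMT and 14.10 and 14.19 untreated. Its groups did not overlap, and its log2 difference was -0.53 (SE 0.15, limma adjusted p = 0.35, and 0.0121 with an intensity trend). Fibronectin (FN1) and vitronectin (VTN), named after their values were seen, had no array above the negative controls.

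Inside the cell, 36 adhesion adaptors and kinases were measured and 0 passed, with 15 higher, 21 lower and a median log2 difference of -0.027. At an unadjusted p under 0.05, 2 of them were higher and 3 lower, and the same counts passed with an intensity trend. TNS4, a tensin that binds the tails of beta chains, had 8.59 and 8.38 with fb-PMT. Untreated it had 5.93 and 6.59, both below the negative controls, so the level was at least 2.27-fold higher with fb-PMT. limma's adjusted p for TNS4 was 0.0675, and 0.000889 with an intensity trend. BCAR1, the scaffold p130Cas of focal adhesions, had 11.86 and 11.90 with fb-PMT and 12.42 and 12.66 untreated. Its log2 difference was -0.66 (SE 0.16, limma adjusted p = 0.294, and 0.0145 with an intensity trend).

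Among 16 measured integrin inactivators, tail-binding proteins and regulators of integrin activation, 0 passed, also with an intensity trend. At an unadjusted p under 0.05, 1 of the 16 was higher. That gene, DAB2, was named after its value was seen and lay below the negative controls throughout. Their median log2 difference was 0.068. RAP1B, a small GTPase that drives integrin activation, had the largest positive difference above background, 0.29 (limma adjusted p = 0.536), and ITGB3BP, which was named for binding the beta-3 tail, the largest negative one, -0.15 (limma adjusted p = 0.759). Of 19 measured genes of integrin traffic 0 passed, with a median of -0.0027, and 1 was higher and 1 lower at an unadjusted p under 0.05. With an intensity trend RAB21 passed as lower (adjusted p = 0.0482). RAB21, a GTPase that binds alpha tails and directs integrin endocytosis, was at -0.49 (limma adjusted p = 0.378), and RAB11FIP1, an effector of recycling, at 0.42 (limma adjusted p = 0.42).

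Of 20 measured surface partners of alpha-v integrins 0 passed, also with an intensity trend, and the median log2 difference was 0.0023. Before adjustment, 1 partner was higher and 1 lower at a p under 0.05. The higher one was TGFBR2, a TGF-beta receptor, at 0.38 (limma adjusted p = 0.442). The lower one, named after its value was seen, was the growth factor receptor EGFR at -0.42. Its limma adjusted p was 0.411, and 0.123 with an intensity trend. The EGFR groups did not overlap, as in 22.3% of all transcript clusters with fb-PMT lower. The largest negative difference was that of the TGF-beta co-receptor ENG, -0.49 (limma adjusted p = 0.557), with 1 of its 2 fb-PMT arrays above the negative controls. Of 19 measured TGF-beta response genes 0 passed, with 7 higher, 12 lower and a median of -0.13. At an unadjusted p under 0.05, 1 was higher and 2 were lower. SMAD6, an inhibitor of BMP signalling, had 11.53 and 11.64 with fb-PMT and 10.84 and 11.01 untreated. TIMP3, a matrix-bound protease inhibitor, had 10.65 and 10.45 with fb-PMT and 11.23 and 11.17 untreated. These were the list's largest rise and fall above background, with log2 differences of 0.66 and -0.65 (limma adjusted p = 0.281 and 0.283). The groups did not overlap in either gene. The fb-PMT arrays lay above both untreated arrays in 4 of the 19 response genes and below both in 8. Of all transcript clusters 20.2% and 22.3% did so. With an intensity trend 1 response gene passed as higher and 2, TGFBI among them, as lower: SMAD6 higher with an adjusted p of 0.0216 and TIMP3 lower with an adjusted p of 0.0281.

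**Figure D4:**
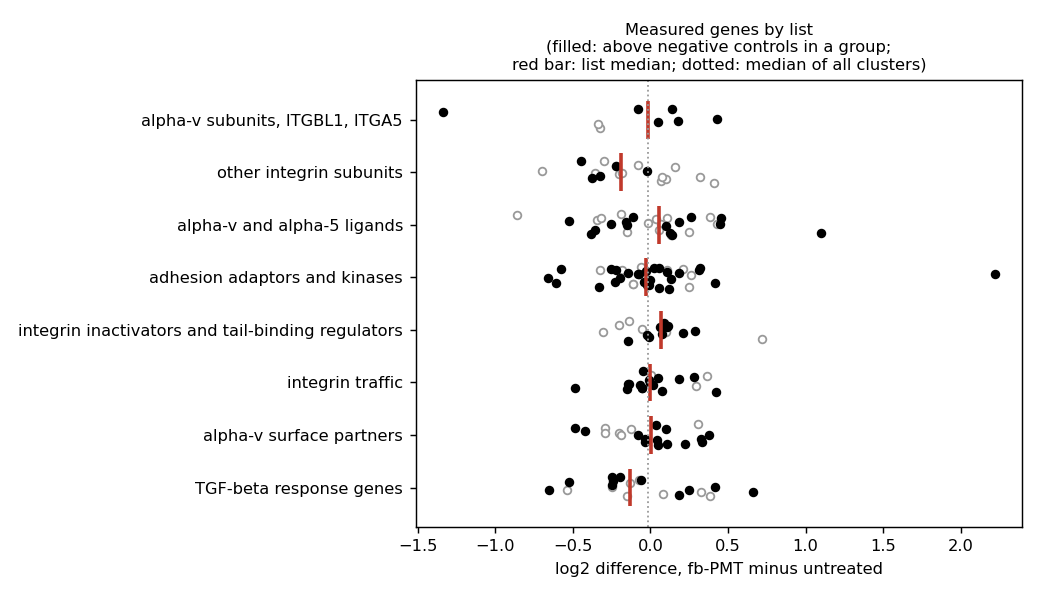
Log2 difference (fb-PMT minus untreated) of every measured gene in 8 lists. Filled points were above the negative controls on both arrays of at least 1 group, open points were not, red bars are list medians and the dotted line is the median of all transcript clusters. ITGBL1 (-1.34), SPP1 (1.10) and TNS4 (2.22 as deposited) lie farthest from the dotted line among the filled points.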

How the data were processed

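The authors deposited log2 values for each probe set, and the submitters' processing notes name RMA and Transcriptome Analysis Console 4.0.1.36; the build is not given in the sources used here. RMA normalizes between arrays, which removes shifts shared by most genes and it shrinks differences of dim probe sets. Of 24351 probe sets, 2903 are array controls and stayed out, and the other 21448, the transcript clusters, were compared, fb-PMT minus untreated, by limma 3.58.1 under R 4.3.3 (lmFit and eBayes, constant prior variance, no covariate). The median standard error was 0.175, and the number of arrays limits the precision. Tests were two-sided, with p-values adjusted by Benjamini-Hochberg over all transcript clusters, with a threshold of 0.05. The platform annotation gave 1 symbol for 17709 and none for 3739. The fit was tested on simulated data, drawn with the same constant prior variance that it assumes. That test therefore cannot judge the constant variance against an intensity trend.

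A gene is called below the negative controls where its values lie under their 95th percentile on the arrays named. Against a group below it on both arrays, the fold is given only as "at least", computed from that percentile. The rule for named genes took the 8 genes, the 3 nearest to ITGAV, and from each other list any member past the threshold plus the largest and smallest difference above background in a group. The 8 genes and the lists were chosen with earlier results of these data known. The replicate numbers were not shown to pair the arrays: deviations from the group means of same-numbered arrays correlated with r = 0.042. Alternatives were a replicate block, an intensity trend in the variance, that trend with robust variances, filters on low values, only named transcript clusters, repeated quantile normalization, median centring, array weights, a looser threshold and leaving out each array.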

Additional observations from a re-analysis of the deposited data

How the results depend on the processing

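Of 102 log2 differences of the 8 genes under 13 alternatives, 94 kept their direction and their side of the threshold, 5 (all ITGBL1) passed it, and 3 changed sign. Those 3 were ITGB6 at 0.33 and 0.049 and ITGA5 at -0.085, each with 1 array left out; with each array left out, ITGB6 ranged from -1.01 to 0.33 and ITGA5 from -0.085 to 0.18. The number of the 8 genes past the threshold was 0 with all arrays and 0 with each array left out, where the spread comes from 1 group alone. It was 1, ITGBL1, with an intensity trend, the trend with robust variances (adjusted p = 0.000825), without the lowest 30%, with the filter on negative controls, with named transcript clusters only, and at an adjusted p of 0.10. Over all transcript clusters 21 passed. The count was 403 with the trend (293 higher, 110 lower), 394 with robust variances, 318 with the filter on negative controls, 67 without the lowest 30%, 44 with named transcript clusters only, 73 at an adjusted p of 0.10, and 1 to 9 with each array left out. With the replicate number as a block it was 1 and ITGBL1 had an adjusted p of 0.195; the block passed none of the 8 genes. The filters and the restriction to named transcript clusters test fewer features; the other causes were not tested. Averaging several transcript clusters per symbol was not run, as each of the 8 genes has 1. ITGB3 and ITGB6 have no value under the filter on negative controls, and their signal under background limits what can be said of them.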

Other observations

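With an intensity trend in the variance, 2 adhesion adaptors and kinases passed as higher and 3 as lower, where 1.37% and 0.513% of all transcript clusters did. Besides TNS4 and BCAR1 they were ACTN1, FERMT1 and PXN, which were chosen for naming after their values had been seen. ACTN1, the actin crosslinker alpha-actinin-1, had 13.80 and 13.81 with fb-PMT and 13.36 and 13.42 untreated (log2 difference 0.42, limma adjusted p = 0.0365 with the trend). FERMT1, the epithelial kindlin-1 that activates beta chains, had 11.14 and 11.05 with fb-PMT and 11.78 and 11.56 untreated (log2 difference -0.57, limma adjusted p = 0.0445 with the trend). PXN, the focal adhesion adaptor paxillin, had 10.69 and 10.95 with fb-PMT and 11.40 and 11.47 untreated (log2 difference -0.61, limma adjusted p = 0.0411 with the trend). In all 3 genes the treated and untreated arrays did not overlap, which adds no support, since the genes were picked by these same values. Of all transcript clusters, 20.2% did not overlap with fb-PMT higher and 22.3% with fb-PMT lower. Without the trend none of the 5 passed, and their adjusted p-values were 0.0675 to 0.399.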
